A study of Homo sapiens with 121 samples.

Results

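Non-homologous end joining is the repair pathway that ligates the ends of a broken chromosome directly, without copying a template. The genes described here are 8 of its components: XRCC5 and XRCC6, which encode the Ku80 and Ku70 subunits of Ku, PRKDC (the DNA-dependent protein kinase), DCLRE1C (the nuclease Artemis), XRCC4, LIG4 and NHEJ1 (the ligation complex), and PARP1 (a break sensor). They were taken by name as components of the pathway, with earlier results of these data known. All 8 were found among the 25610 genes read from the deposited expression table. The study separated polyadenylated RNA from genomic DNA of the same single cell, sequenced the RNA by Smart-seq2, a full-length method without molecular identifiers, and measured relative telomere length from the DNA as the T/R ratio, the PCR signal of telomeric repeats (T) over that of Alu repeats (R). The 121 cells were picked one by one from the human embryonic stem cell (hESC) line WA26, grown in E8 medium on Matrigel, and the labels name no treatment and no genetic change. By their T/R ratio the study placed 81 cells in a Long, 25 in a Medium and 15 in a Short telomere group. All cells are thus of 1 line, and no culture, plate or batch is named for any of them, so that each group counts as 1 sample. Spread is given between cells, as SD, and no p-value is given.

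Ku is a ring of both subunits that threads onto a DNA end and is the first factor there. It recruits the kinase encoded by PRKDC, Artemis trims ends that cannot be joined as they are, and XRCC4, ligase IV and the XRCC4-like factor encoded by NHEJ1 hold the ends together and seal them. PARP1 binds single-strand and double-strand breaks and is best known from single-strand break repair and from a back-up route of end joining. Telomeres are natural DNA ends where this pathway is held off by the shelterin complex, although Ku and the PRKDC kinase are both found there, and loss of Ku from human cells leads to loss of telomeric DNA.

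The values were TPM, transcript abundances divided by transcript length and scaled to a fixed total in each cell, so that levels of different genes can be set side by side. They summed to between 979828 and 997050 per cell over the genes read and carried no read depth. As a stand-in for depth, the genes above TPM 1 ("detected") numbered between 2030 and 11515. The median number was 9165 in the Long, 8626 in the Medium and 5620 in the Short group. Cells with more than 8000 detected genes are called gene-rich here, and they were 51 of 81 Long, 14 of 25 Medium and 3 of 15 Short cells. The group and the number of detected genes therefore moved together, and the comparisons between groups are given in all cells and in the gene-rich and the gene-poor cells. The pluripotency markers POU5F1 and LIN28A were detected in all 121 cells and NANOG in 116. The summed TPM of the 6 hESC markers ranged from 522 to 2597 in Long, from 814 to 2435 in Medium and from 521 to 2256 in Short cells. Of the 4 markers of each other lineage, the endoderm marker GATA6 was detected in 0 cells and SOX17 in 1, and the fibroblast marker LUM in 0 and DCN in 1. Others were read more widely, COL1A2 (fibroblast) in 77 cells and COL1A1 in 21, MIXL1 (mesoderm) in 46, KRT7 (trophoblast) in 46 and NES (neuroectoderm) in 100. The other mesoderm markers were detected in few cells, MESP1 in 6, TBX6 in 4 and EOMES in 2. The same held for the other trophoblast markers, CGA and GATA3 in 7 each and CDX2 in 2. Of the neuroectoderm markers OTX2 was detected in 69 cells, PAX6 in 33 and SOX1 in 9, and of the endoderm markers GATA4 in 5 and FOXA2 in 2. The summed TPM of the mesoderm markers had a median of 0.93 in Long and 7.64 in Short cells, and the part of these markers in the results was not tested. Among the 68 gene-rich cells, 6 (3 Long, 3 Medium and 0 Short) stood apart on the first principal component of 7900 genes, with scores of at least 53.7 against at most 25.1 in the other 62, and results that rest on them are given with and without them. One gene-poor Long cell (Long 4, with 4366 detected genes) was the lowest in both Ku genes and is treated likewise. It had 2.21 TPM of XRCC5, where the next lowest cell had 28.3, and 1.19 of XRCC6, where the next lowest had 3.45.

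The promoters of 3 of the 8 genes, each with a single start in RefSeq (GRCh38.p14), are shown because they cover both kinds of expression described after them, XRCC6 and PARP1 being read in nearly every cell and XRCC4 in some cells and not in others. Each run is the 250 bases before the start, 5′ to 3′ on the gene's strand, with GC boxes (GGGCGG, or CCGCCC on the other strand) in capitals.
XRCC6, chr22:41621045-41621294, plus strand: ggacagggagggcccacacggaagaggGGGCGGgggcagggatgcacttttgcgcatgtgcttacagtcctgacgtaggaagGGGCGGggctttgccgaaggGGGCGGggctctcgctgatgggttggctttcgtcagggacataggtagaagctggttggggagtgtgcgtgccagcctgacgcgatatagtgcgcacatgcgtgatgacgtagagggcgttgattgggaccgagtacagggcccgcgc
XRCC4, chr5:83077297-83077546, plus strand: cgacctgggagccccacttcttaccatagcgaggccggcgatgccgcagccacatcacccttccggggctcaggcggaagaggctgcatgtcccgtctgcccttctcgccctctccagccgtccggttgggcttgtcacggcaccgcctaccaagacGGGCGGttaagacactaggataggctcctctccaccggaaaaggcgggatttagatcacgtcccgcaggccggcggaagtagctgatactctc
PARP1, chr1:226408094-226408343, minus strand: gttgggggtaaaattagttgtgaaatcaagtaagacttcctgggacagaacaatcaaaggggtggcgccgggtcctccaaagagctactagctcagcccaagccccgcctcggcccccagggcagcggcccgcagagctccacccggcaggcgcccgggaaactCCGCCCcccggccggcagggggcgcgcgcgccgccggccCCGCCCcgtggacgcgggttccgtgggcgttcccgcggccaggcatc
The XRCC6 window held 3 GC boxes, the PARP1 window 2 and the XRCC4 window 1, and 42.6% of 35114 RefSeq promoter windows of this length held at least 1. The G and C content was 63.6% for XRCC6, 63.6% for XRCC4 and 70.4% for PARP1, against a median of 58% over all promoters. XRCC6 also held 2 copies of TGACGT or its reverse ACGTCA, letters found in 7.10% of all windows, and XRCC4 held 2 copies of CCGGAA or its reverse TTCCGG, found in 14.5%. These are letter matches and were not tied to any measurement here.

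The 8 genes spanned a wide range of levels, and they fell into an abundant and a sparse set. By mean TPM over the 121 cells XRCC5 ranked 337 of 25610 genes, XRCC6 485, PARP1 909 and PRKDC 2575. The mean log2(TPM+1) was 8.74 for XRCC5, 8.18 for XRCC6, 7.10 for PARP1 and 4.82 for PRKDC, then 3.18 for XRCC4, 2.45 for NHEJ1, 1.85 for DCLRE1C and 1.05 for LIG4. Within a cell, XRCC5 was above XRCC6 in 100 of 121 cells, XRCC6 above PARP1 in 104 and PARP1 above PRKDC in 118. Among neighbours in this order, only the step from PARP1 to PRKDC (2.28 on the log2 scale, SD 1.99) was larger than its SD between cells, and the other 6 were not. XRCC4 was above NHEJ1 in 64 cells (mean difference 0.74, SD 3.10) and NHEJ1 above DCLRE1C in 63 (0.59, SD 2.53). The coefficient of variation of TPM, SD over mean, was 0.53 for XRCC5, 0.49 for XRCC6, 0.61 for PARP1 and 0.67 for PRKDC. The median over the 6213 genes that averaged 10 TPM or more was 1.19, below which these 4 lay (the median level of those genes was 30.8 TPM, so XRCC5, XRCC6 and PARP1 are also more abundant than most of them), while XRCC4 (1.71) and NHEJ1 (3.83) varied more.

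**Figure D1:**
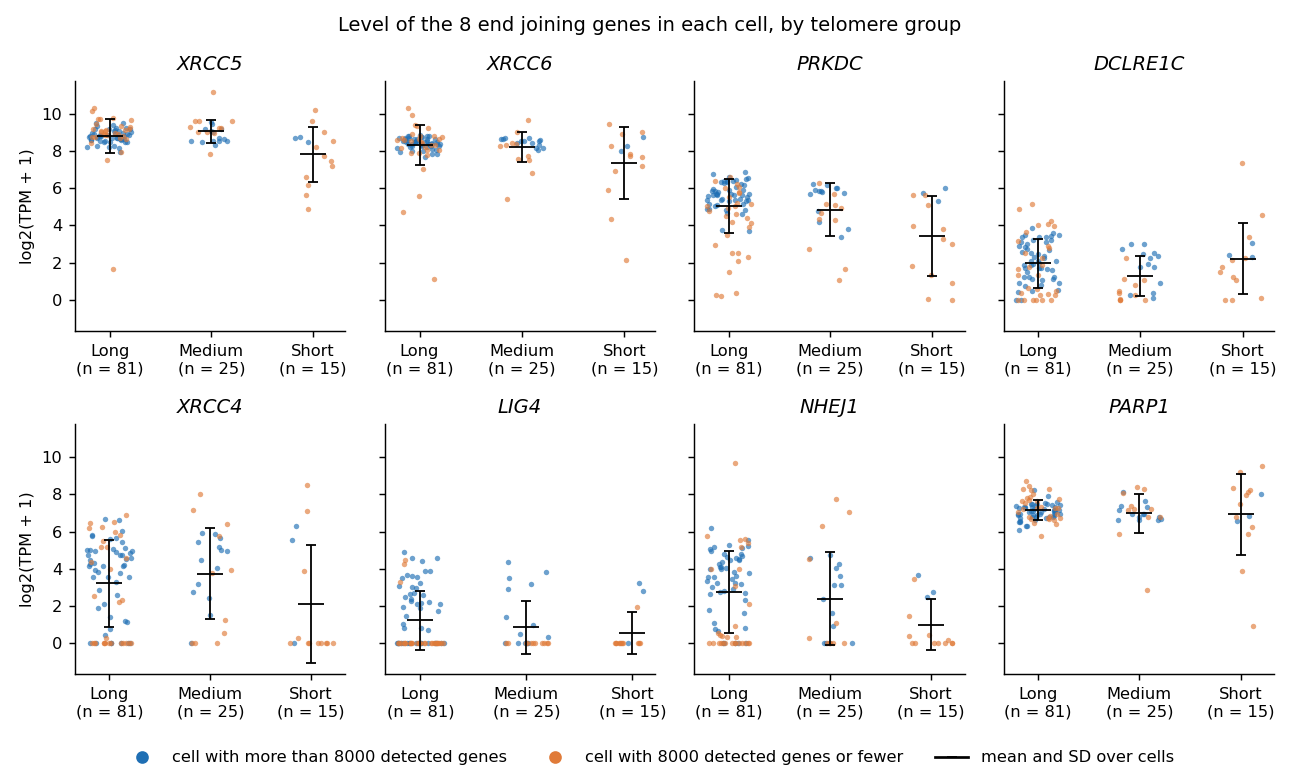
Level of each of the 8 genes as log2(TPM + 1) (vertical axis) in every cell of the Long, Medium and Short telomere groups (horizontal axis), with blue points for gene-rich and orange points for gene-poor cells and black bars for the mean and SD over cells. XRCC5, XRCC6 and PARP1 form tight bands near 8.8, 8.4 and 7.1 in the gene-rich cells, while XRCC4, LIG4 and NHEJ1 have a row of cells at 0 in all 3 groups.

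The Ku subunits were the most abundant of the 8 genes. XRCC5 (GRCh37, chr2:216972187-217071026), the subunit Ku80, ranged from 2.21 through a median of 472 to 1278 TPM in Long, from 233 through 531 to 2286 in Medium and from 28.3 through 299 to 1182 in Short cells. XRCC6 (chr22:42017167-42060052), the subunit Ku70, ranged from 1.19 through 355 to 1296 TPM in Long, from 41.5 through 342 to 827 in Medium and from 3.45 through 226 to 707 in Short cells. Both genes were above TPM 1 in all 121 cells (exact 95% interval of the share, 97.0 to 100%, which covers the counting of cells only), and the ranges of the 3 groups overlapped almost wholly. The low values were few, and they lay in gene-poor cells. In the 68 gene-rich cells XRCC5 stayed between 243 and 754 TPM and XRCC6 between 203 and 465, and the SD on the log2 scale was 0.35 and 0.27, against 1.5 and 1.73 in the 53 gene-poor cells. The 3 gene-rich Short cells had 354, 420 and 434 TPM of XRCC5 and 254, 305 and 439.6 of XRCC6, inside the range of the 51 gene-rich Long cells for both genes.

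PRKDC, on chromosome 8, encodes the very large catalytic subunit of the DNA-dependent protein kinase, and Artemis is the nuclease that this kinase switches on. PRKDC ranged from 0.14 through 41.2 to 116 TPM in Long, from 1.13 through 35.1 to 75.6 in Medium and from 0.01 through 13.0 to 63.3 in Short cells. It was detected in 78 of 81 Long, 25 of 25 Medium and 12 of 15 Short cells, so the groups overlapped, and the cells without it were all gene-poor. Among gene-rich cells it was detected in 68 of 68, with a median of 50.5 TPM, and the 3 Short cells had 38.7, 52.0 and 63.3 TPM against a Long median of 48.7. DCLRE1C (GRCh37, chr10:14939358-14996431) was low throughout, from 0 through 2.63 to 34.4 TPM in Long, from 0 through 1.13 to 7.05 in Medium and from 0 through 3.39 to 163 in Short cells. With PARP1 it was one of the 2 genes with a higher median in Short than in Long cells, and its highest value came from a single gene-poor Short cell with 3481 detected genes that held 72.7% of all DCLRE1C TPM in the group. It was detected in 59 of 81 Long (72.8%, exact 95% interval 61.8 to 82.1%), 13 of 25 Medium (52.0%, 31.3 to 72.2%) and 12 of 15 Short cells (80.0%, 51.9 to 95.7%), intervals that overlap.

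The 3 ligation genes were read in some cells and listed at 0 in others. XRCC4 (GRCh37, chr5:82373317-82649606), the scaffold of the ligase, was listed at 0 in 20 of 81 Long, 4 of 25 Medium and 9 of 15 Short cells, with medians of 14.9, 15.3 and 0 TPM and highest values of 118, 259.6 and 368. Where XRCC4 was detected, the 58 Long cells had a median of 24.2 TPM, the 20 Medium cells of 30.7 and the 5 Short cells of 78.6, so the Short group held fewer cells with XRCC4 but not lower values in those cells. LIG4 (chr13:108859787-108870716), the ligase itself, was the lowest of the 8 and was detected in 32 of 81 Long (39.5%, 28.8 to 51.0%), 6 of 25 Medium (24.0%, 9.36 to 45.1%) and 3 of 15 Short cells (20.0%, 4.33 to 48.1%). Its median was 0 TPM in each group and its highest value 28.9, 19.9 and 8.40 TPM. LIG4 moved with the number of detected genes, being read in 37 of 68 gene-rich but 4 of 53 gene-poor cells (54.4% against 7.55%). NHEJ1 (chr2:219934077-220025591), the XRCC4-like factor, ranged from 0 through 7.98 to 819 TPM in Long, from 0 through 2.03 to 218 in Medium and from 0 through 0.12 to 11.5 in Short cells. It was detected in 53 of 81 Long (65.4%, 54.0 to 75.7%), 14 of 25 Medium and 5 of 15 Short cells (33.3%, 11.8 to 61.6%), and in all 3 gene-rich Short cells, at 4.54, 5.67 and 11.5 TPM. All 3 ligation genes were detected together in 26 of 68 gene-rich cells but in 1 of 53 gene-poor cells. None of the 3 was detected in 10 of 81 Long, 3 of 25 Medium and 7 of 15 Short cells, and 19 of these 20 cells were gene-poor. As the depth of each cell is unknown here, a value of 0 was not read as absence.

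PARP1 (GRCh37, chr1:226547911-226595855), the abundant break sensor, ranged from 53.4 through 140.2 to 424 TPM in Long cells (SD 0.55 on the log2 scale). It ranged from 6.26 through 124 to 333 TPM in Medium and from 0.92 through 177 to 737 in Short cells, where the SD was 2.18. The Short group thus held both the lowest and the highest PARP1 value of the series, in gene-poor cells, with 1 Short cell below TPM 1 and the other 14 at 13.9 TPM or more. In the gene-rich cells PARP1 stayed between 65.9 and 299 TPM, and the 3 Short cells had 94.1, 115 and 258.

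The study asked which genes differ with telomere length, and the first comparison was of Long with Short cells. On the scale of mean log2(TPM+1), NHEJ1 was higher in Long by 1.76 (2.74 ± 2.19 against 0.98 ± 1.38, SD over 81 and 15 cells), PRKDC by 1.62 (5.06 ± 1.47 against 3.44 ± 2.16) and XRCC4 by 1.10 (3.21 ± 2.34 against 2.11 ± 3.19). These 3 of 8 were past a difference of 1, the limit used here for a call, where 35.9% of all 15956 genes tested (above TPM 1 in at least 5 cells) were past it in either direction. XRCC5 (0.99) and XRCC6 (0.95) were just inside the limit, followed by LIG4 (0.69), PARP1 (0.23) and DCLRE1C, which was lower in Long by 0.24 on that scale. The median of the 8 was 0.97 against 0.50 for all genes tested, and 1.40 for those that averaged 10 TPM or more, a set of 6213 genes in which 68.2% were past the limit. The share of the 8 genes past the limit was therefore near that of all genes, and each difference was smaller than the larger SD of its groups. Without Long 4, 5 of 8 were past 1, as XRCC5 then differed by 1.08 and XRCC6 by 1.04. A Long cell was above a Short cell in 74.6% of pairs for XRCC5, 73.6% for NHEJ1, 73.2% for PRKDC and 68.5% for XRCC6, but in 62.6% for XRCC4, 62.0% for LIG4, 49.5% for DCLRE1C and 45.9% for PARP1. PARP1 changed direction with the measure, its difference being -0.33 between group medians and -0.51 when each cell was rescaled by its median ratio over 602 genes above 0 in every cell. That rescaling lowered the median of all genes tested by 0.19 and gave 0.23 for XRCC5, 0.19 for XRCC6, 1.01 for PRKDC and 0.99 for XRCC4, so that 2 of 8 were past 1.

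The number of detected genes moved with this comparison. So did the summed TPM of the 6 pluripotency markers, with a median of 2018 in Long and 1047 in Short cells. All 6 were detected in most cells, but their gaps in mean log2 level were unequal. Those levels were 7.43 in Long against 4.21 in Short for NANOG, 6.07 against 3.81 for ZFP42 and 7.02 against 5.07 for DNMT3B. They were 5.58 against 4.33 for SOX2, 10.1 against 9.19 for POU5F1 and 7.52 against 7.23 for LIN28A. The study reported lower NANOG and ZFP42 in short telomere cells, and DNMT3B as generally higher in long and medium ones. It reported no difference in POU5F1, SOX2 and LIN28A with telomere length. The part of the markers in the result was not tested, and for the detected genes the cells were split. Between the 51 Long and 3 Short gene-rich cells 0 of 8 genes were past 1, against 18.3% of all genes tested, and the differences ran from -0.52 for DCLRE1C to 0.36 for NHEJ1. PRKDC differed by -0.05, XRCC4 by -0.42, LIG4 by -0.32 and PARP1 by -0.08 in these cells, the opposite direction to all cells. The study reported XRCC5 and XRCC6 as high in almost all hESCs and lower in those with short telomeres. In these gene-rich cells they differed by 0.15 and 0.08. The median of the 8 was -0.06 against 0.12 for all genes tested. Between the 30 Long and 12 Short gene-poor cells 4 of 8 were past 1 (28.6% of all genes tested), NHEJ1 by 1.28, XRCC5 by 1.22, PRKDC by 1.20 and XRCC4 by 1.02, with XRCC6 at 0.99. The median there was 1.01 against 0.21 for all genes tested and 1.03 for those averaging 10 TPM or more. The difference between Long and Short was thus seen among gene-poor cells, where detected genes still averaged 5755 in Long and 4933 in Short, and not among the gene-rich cells, where the Short group held only 3 cells, and the contrast between these sets of cells was not tested.

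**Figure D2:**
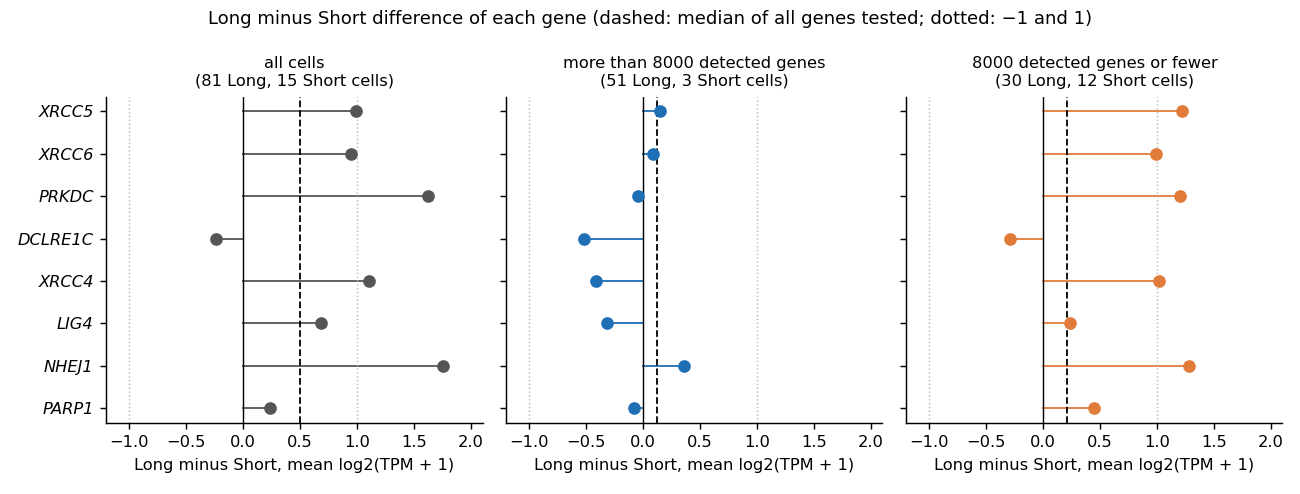
Difference in mean log2(TPM + 1) between Long and Short cells (horizontal axis) for each of the 8 genes (vertical axis) in all cells, in gene-rich and in gene-poor cells, with a dashed line at the median of all genes tested and dotted lines at -1 and 1. NHEJ1, PRKDC and XRCC4 lie past 1 in all cells and in the gene-poor cells, and none of the 8 does in the gene-rich cells.

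Medium cells resembled Long cells in their number of detected genes, and the 8 genes differed little between these groups. None of the 8 was past 1 between Long and Medium in all cells, where 1.08% of all genes tested were, and the differences ran from -0.51 for XRCC4 to 0.69 for DCLRE1C. XRCC5 was lower in Long by 0.26 on the log2 scale and XRCC6 higher by 0.08. NHEJ1 differed most in the gene-rich cells, at 3.31 ± 1.67 in 51 Long against 2.31 ± 1.85 in 14 Medium cells (SD), a difference of 1.00 that lay just inside the limit and above 99.2% of all genes tested, so that 0 of 8 were past it (1.39% of all genes tested). It was detected in 43 of those 51 Long and 9 of those 14 Medium cells (84.3% with an interval of 71.4 to 93.0%, and 64.3% with 35.1 to 87.2%), and in gene-poor cells its difference was -0.68. DCLRE1C was detected in 17 of 30 gene-poor Long but 3 of 11 gene-poor Medium cells, with a mean log2 difference of 1.23, and it was the one gene past 1 there (9.4% of all genes tested). The Medium minus Short comparison uses the same Medium and Short cells as the other comparisons, and 4 of 8 genes were past 1 in it (32% of all genes tested), XRCC4 at 1.61, PRKDC at 1.42, NHEJ1 at 1.39 and XRCC5 at 1.25, with DCLRE1C at -0.93. In gene-rich cells it was 0 of 8 (20.2%), and in gene-poor cells 5 of 8 (28.8%), the same 4 with Medium higher and DCLRE1C with Medium lower (-1.52).

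Ratios of mean TPM, taken without a logarithm, differed from these log2 differences for several genes, and for the sparse ones single cells held much of a group's sum. The mean of XRCC4 was 22.8 TPM in Long and 42.9 in Short, a ratio of 0.53 where the log2 means gave Long as higher, and 1 Short cell at 368 TPM held 57.2% of the group's sum. Without the highest cell of each group the ratio was 1.10. DCLRE1C went from 0.33 to 1.04 in the same way. The mean of NHEJ1 was 23.0 TPM in Long and 2.27 in Short, a ratio of 10.1, and 8.05 without the highest cell of each group. For XRCC5 (1.44 and 1.71), XRCC6 (1.37 and 1.5) and PRKDC (2.03 and 2.29) the ratio moved less, and for LIG4 it went from 3.19 to 5.30. PARP1, an abundant gene, had a ratio of 0.68 (0.80 without the highest cells), opposite in direction to its log2 difference. These ratios were taken over all cells only.

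The number of the 8 genes detected in a cell gives the pathway's coverage cell by cell. It averaged 6.46 ± 1.24 in Long, 6.12 ± 1.05 in Medium and 5.40 ± 1.5 in Short cells (SD over cells). All 8 were detected in 18 of 81 Long, 2 of 25 Medium and 1 of 15 Short cells, and the 2 cells with as few as 3 were both Short. In gene-rich cells the averages were 7.06, 6.71 and 7.33, so the Short cells were not the lower ones there, and in gene-poor cells they were 5.43, 5.36 and 4.92. Over the 121 cells the log2 level of PRKDC had a Pearson's r of 0.60 with the number of detected genes. LIG4 had 0.43, NHEJ1 0.38 and XRCC4 0.33, against 0.29 for the median gene tested, while XRCC5 had 0.04 and PARP1 -0.12. In ranks (Spearman's rho) XRCC5 had -0.27 and PARP1 -0.24. In the 68 gene-rich cells their Pearson's r was -0.46 and -0.30, so both were lower where more genes were detected. These correlations are across cells of 1 line and describe them without a test.

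The T/R ratio itself gives the same question without group borders. Pearson's r of TPM with the T/R ratio over 121 cells was 0.17 for NHEJ1, 0.15 for XRCC6, 0.11 for PRKDC, 0.05 for LIG4 and 0.03 for XRCC5. It was -0.11 for XRCC4, -0.12 for PARP1 and -0.12 for DCLRE1C. All 8 lay between the 5th and the 95th percentile of all genes tested (-0.18 and 0.23), with a median of 0.041 against 0.0049 over all genes. Spearman's rho was 0.16 for NHEJ1, 0.19 for XRCC6 and 0.15 for PRKDC, but 0.03 for DCLRE1C and -0.01 for both PARP1 and XRCC4, so the negative r of these 3 was not seen in ranks. The r of NHEJ1 in turn rested on 1 cell, Long 4 with 819 TPM, and was -0.0020 without it. In gene-rich cells the 8 values ran from -0.07 to 0.09, and in gene-poor cells from -0.14 to 0.20. Over all cells but the 2 with the T/R ratio farthest from its median they ran from -0.16 to 0.18.

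**Figure D3:**
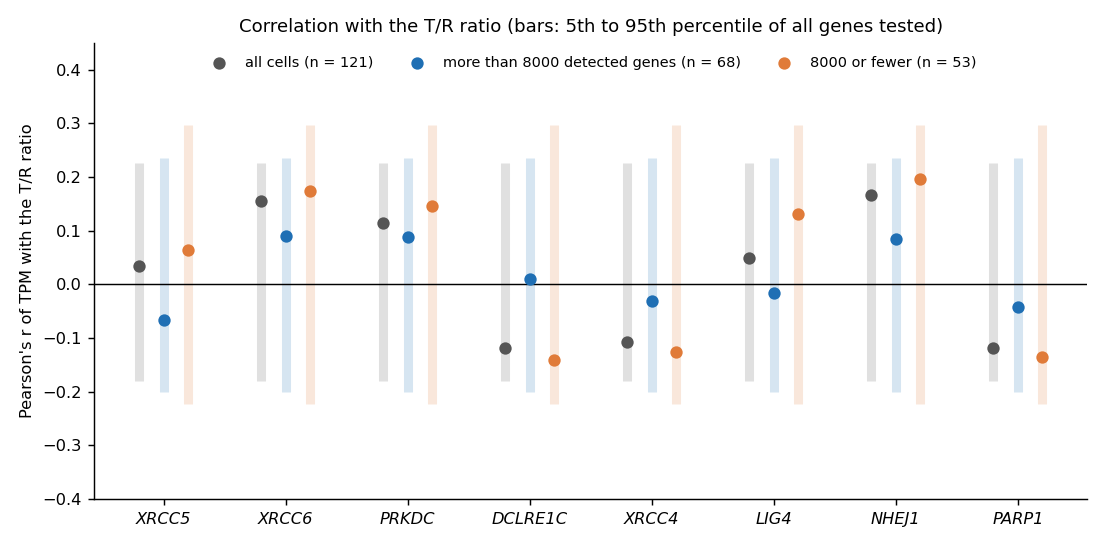
Pearson's r of TPM with the T/R ratio (vertical axis) for each of the 8 genes (horizontal axis) over all, gene-rich and gene-poor cells, with shaded bars from the 5th to the 95th percentile of all genes tested in the same cells. Every point lies inside its bar, and the points of the 68 gene-rich cells lie between -0.07 and 0.09.

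Within the groups the relation with the T/R ratio was weak in Long cells and differed from gene to gene in Medium and Short cells. In the 81 Long cells r ran from -0.16 for PRKDC to 0.20 for NHEJ1, but NHEJ1 had a rho of -0.07 there. The number of detected genes had an r of -0.36 with the T/R ratio in Long cells, against 0.06 over all 121 cells. Given that number, the partial r of PRKDC in Long cells was -0.01. In the 25 Medium cells r ran from -0.05 for XRCC4 to 0.40 for XRCC6. Without the 2 Medium cells farthest from that group's median T/R ratio XRCC4 had an r of 0.45, then the highest of the 8, and XRCC6 0.42. The r of XRCC6 over the 25 cells was above the 95th percentile of all genes tested (0.35), and it was 0.63 in the 11 gene-poor but -0.10 in the 14 gene-rich Medium cells. In the 15 Short cells PRKDC had an r of 0.70 and a rho of 0.79, above the 95th percentile of all genes tested (0.49), and 0.64 without the 2 Short cells farthest from the group's median T/R ratio. The number of detected genes itself had an r of 0.72 with the T/R ratio in these 15 cells, and the partial r of PRKDC given that number was 0.47. In the 12 gene-poor Short cells alone PRKDC had an r of 0.64. Over the 15 cells PARP1 and DCLRE1C had negative r, -0.38 and -0.37, and DCLRE1C had 0.11 without the same 2 cells. PRKDC had an r of 0.20 in Medium cells, and the differences between groups were not tested.

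Ku works as a heterodimer, and the ratio of its subunits within a cell hardly depends on how the cell was scaled. The log2 ratio of XRCC5 to XRCC6 averaged 0.50 ± 0.71 in Long, 0.84 ± 0.84 in Medium and 0.45 ± 1.70 in Short cells (SD over cells), so Long and Short differed by 0.04. In gene-rich cells it was 0.37 ± 0.42, 0.38 ± 0.43 and 0.31 ± 0.42, and 62 of 68 cells were within 1 of equal TPM. In gene-poor cells 31 of 53 were within 1, and the ratio ran from -3.85 to 4.48, both ends in Short cells. The low end was a Short cell with 48.2 TPM of XRCC5 and 707 of XRCC6, and the high end one with 98.1 of XRCC5 and 3.45 of XRCC6. In gene-poor cells the 11 Medium cells had the highest average (1.41 ± 0.89), above the Long (0.72 ± 1.00) and the Short cells (0.49 ± 1.90). XRCC5 was above PARP1 in all 68 gene-rich cells, by 1.73 ± 0.47 on the log2 scale, and above PRKDC in all 68, by 3.22 ± 0.89.

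The 8 genes varied together little. Over 121 cells the 28 pairs had a median r of log2(TPM+1) of 0.10, the same as the 0.10 that the 8 genes had with all genes tested, and 3 pairs were above 0.3, XRCC5 with XRCC6 (0.67), XRCC6 with PARP1 (0.45) and XRCC6 with XRCC4 (0.31). In gene-rich cells 0 of 28 pairs were above 0.3 and the median was -0.04, and in gene-poor cells 5 of 28 and 0.07. XRCC5 with XRCC6 had an r of 0.11 in gene-rich and 0.70 in gene-poor cells, and XRCC6 with PARP1 had 0.05 and 0.50. The 0.67 of the Ku pair drew on Long 4, which had 2.21 TPM of XRCC5 and 1.19 of XRCC6, each the lowest of all 121 cells, together with 819 TPM of NHEJ1, the highest, and 86.2 of PARP1. Without that cell the Ku pair had an r of 0.50 over 120 cells and a rho of 0.24, and within Long cells r went from 0.75 to 0.29. XRCC6 with PARP1 had its highest r in the Short group, at 0.90 over 15 cells (rho 0.70) against 0.11 in Long and 0.13 in Medium cells. The lowest Short cells in both genes were Short 7 (3.45 TPM of XRCC6 and 0.92 of PARP1) and Short 6 (19.6 and 13.9). The r without these cells was not computed. The complex partners XRCC4 and LIG4 had an r of 0.03 over all cells and -0.09 in gene-rich cells.

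**Figure D4:**
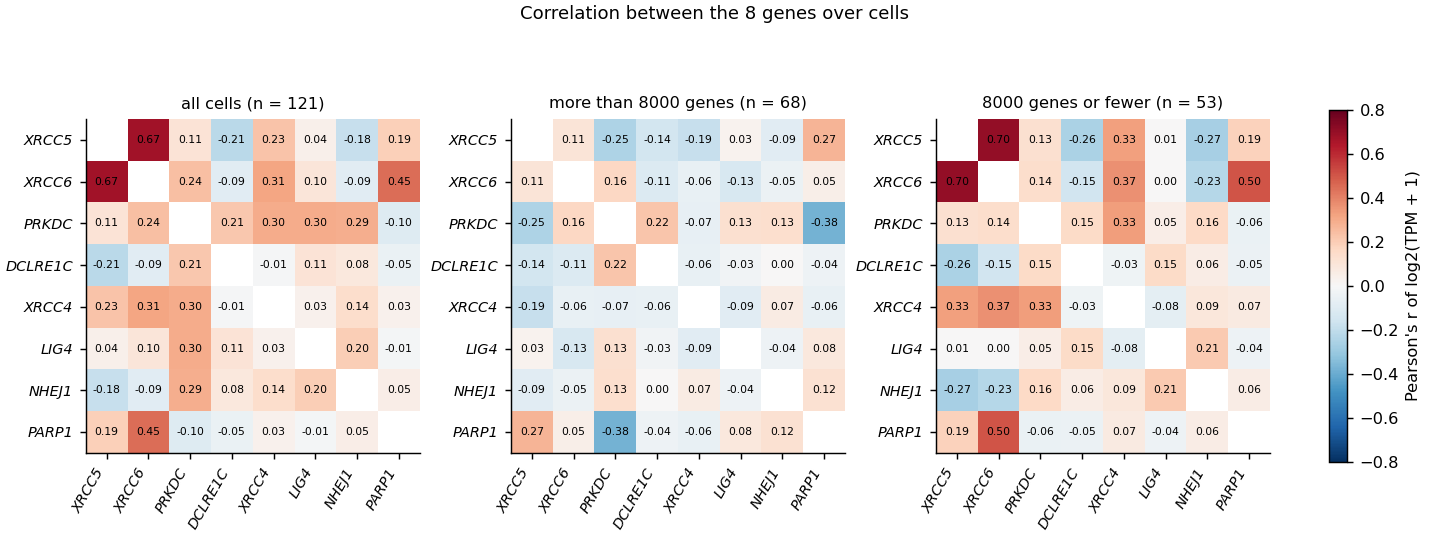
Pearson's r of log2(TPM + 1) between each pair of the 8 genes (both axes) over all, gene-rich and gene-poor cells, red for positive and blue for negative. The Ku pair stands at 0.67 in all and 0.70 in gene-poor cells but at 0.11 in gene-rich cells, where the value farthest from 0 is the -0.38 of PRKDC with PARP1.

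Among the gene-rich cells, the 6 that stood apart differed from the rest most in PRKDC, PARP1, DCLRE1C and XRCC5. They had been set apart with all genes of these cells, so the values are a description. PRKDC was at 9.55, 11.9, 12.4, 13.2, 17.0 and 24.8 TPM in them, against 23.2 through 52.7 to 116 TPM in the other 62, and only 1 of the 62 was below their highest value. PARP1 ran from 157 through 223 to 299 TPM in the 6 and from 65.9 through 123 to 258 in the 62. XRCC5 ran from 479 through 649 to 754 TPM against 243 through 419.6 to 719, while XRCC6 had medians of 331 and 357. On the log2 scale the means differed by -1.83 for PRKDC, 0.81 for PARP1, -0.80 for DCLRE1C, 0.52 for XRCC5 and -0.05 for XRCC6. The 6 cells had 8064 to 9492 detected genes against 8210 to 11515, and the genes that weighed most on the component included HIST1H4J, SNAR-B1, SIX6, HIST1H4C and HESX1, higher in the 6, and RPL21P28, PWAR5, TAGLN and NODAL, lower in them. All 6 hESC markers were detected in each of the 6 cells, but not all at the level of the other gene-rich cells. Median log2 levels were 9.47 against 10.3 for POU5F1, 6.88 against 7.82 for NANOG, 5.62 against 6.63 for ZFP42 and 7.08 against 7.98 for LIN28A. SOX2 had 6.02 in both and DNMT3B 7.04 against 7.17. Of the markers of other lineages KRT7 was higher in the 6 (2.96 against 0.58) and COL1A2 lower (1.83 against 3.14). What sets these cells apart was not tested. The r of PRKDC with PARP1 over gene-rich cells was -0.38 with them and 0.05 without them, and XRCC5 with PRKDC went from -0.25 to 0.10. Without them the median Long minus Short difference of the 8 genes was 0.96, and the same number, 3, were past 1.

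**Figure D5:**
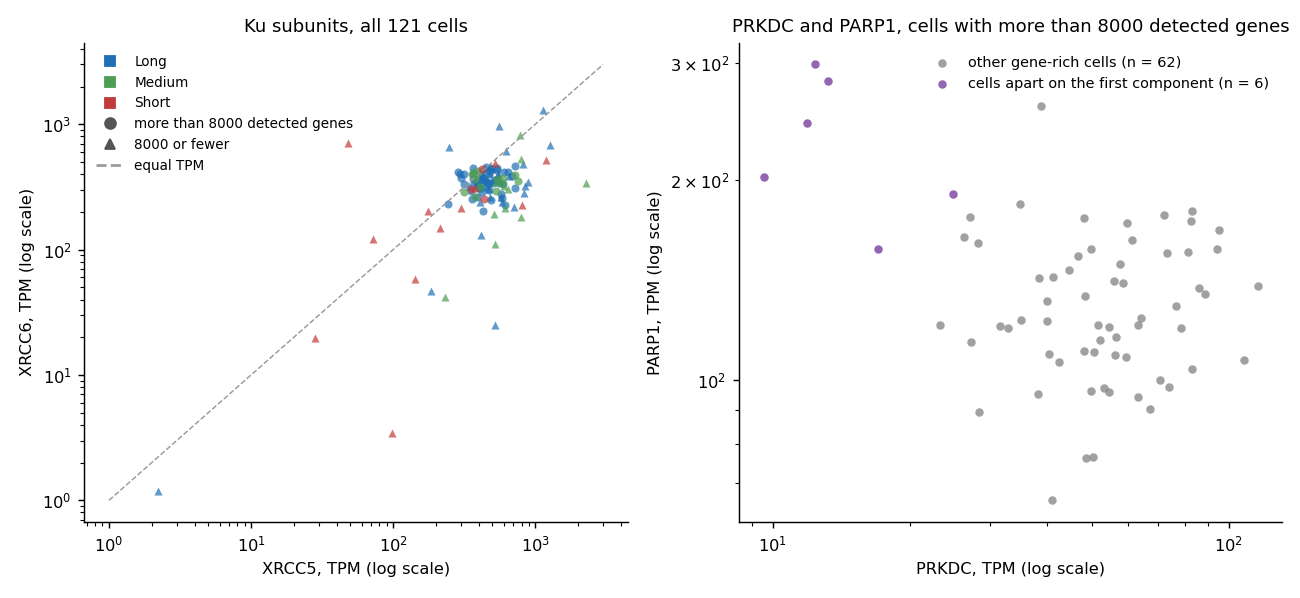
Left, TPM of XRCC5 (horizontal) and XRCC6 (vertical), both on log axes, in each of the 121 cells, coloured by telomere group, with circles for gene-rich and triangles for gene-poor cells. Right, TPM of PRKDC and PARP1 on log axes in the 68 gene-rich cells, with the 6 cells apart in purple. The gene-rich cells form 1 tight cloud for Ku and the scattered points are gene-poor, with Long 4 at 2.21 and 1.19 TPM, and the 6 cells lie at low PRKDC (9.55 to 24.8 TPM) and high PARP1 (157 to 299 TPM).

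For the members averaging 10 TPM or more, thus not for DCLRE1C and LIG4, the most similar genes were sought over the 68 gene-rich cells. The search covered 6212 other genes averaging 10 TPM or more and used r of log2(TPM+1). For PRKDC they included EEF1A1 (0.77), a translation elongation factor, and CS (0.75), citrate synthase, and 200 genes had an r above 0.5. Without the 6 cells apart these became 0.45 and 0.48, and 7 genes were above 0.5. For PARP1 the closest were SRSF11 (0.59), a splicing factor, UQCR10 (0.55), a subunit of respiratory complex III, and SNRPB (0.55), a core spliceosome protein, which became 0.44, 0.24 and 0.26. For XRCC5 they were PMF1 (0.57), U2AF1 (0.55) and HMGN3 (0.54), which became 0.46, 0.41 and 0.46 without the 6 cells, and the number of genes above 0.5 went from 8 to 0. XRCC6, XRCC4 and NHEJ1 had no gene above 0.5, and their closest were NKTR (0.41), C1GALT1C1 (0.45) and CBR4 (0.44). Without the 6 cells these became 0.44, 0.46 and 0.43, and NHEJ1 had 1 gene above 0.5, IMP3 (0.54). In gene-poor cells the same 3 values were -0.30, 0.26 and 0.07, so the likeness of NKTR to XRCC6 was not seen there.

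Of the 8 genes, 4 start within 1000 bases of a protein-coding gene on the other strand. PRKDC and MCM4, a subunit of the replicative helicase, start 7 bases apart, LIG4 and ABHD13 24, XRCC6 and DESI1 120, and XRCC4 and TMEM167A 365 (GRCh37 annotation). Over 121 cells r was 0.40 for PRKDC with MCM4, 0.33 for XRCC4 with TMEM167A, 0.26 for LIG4 with ABHD13 and -0.18 for XRCC6 with DESI1. In gene-rich cells the 4 values were -0.06, 0.11, 0.03 and -0.02, and in gene-poor cells 0.35, 0.34, 0.06 and -0.33. TMEM167A overlaps XRCC4, SUV39H2 overlaps DCLRE1C, and a coding gene listed by identifier only overlaps NHEJ1. The reads of overlapping genes cannot be told apart if strand was not kept. Pseudogenes named XRCC6P1 to XRCC6P5, PARP1P1, PARP1P2 and DCLRE1CP1 could share reads with their parents. Of these XRCC6P5 was in the table, at a mean of 0.11 TPM and detected in 2 cells.

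Wider lists of the pathway had larger median differences in all cells than within the gene-rich or the gene-poor cells. Of 12 genes for end processing and accessory factors, 11 were tested, and 8 were past 1 with Long higher and 0 with Long lower (32.7% and 3.18% of all genes tested), with a median of 1.34. Among the genes averaging 10 TPM or more, 4132 of the 6199 tested were past 1 with Long higher, with a median of 1.40. TDP2, which removes trapped topoisomerase II from ends, was at 3.02, C9orf142 (PAXX) at 1.96 and WRN at 1.74, while POLM was at -0.02. DNTT, the template-free polymerase of lymphocytes, was detected in 0 of 121 cells, which allows a share of cells above TPM 1 of up to 2.48% (3 of 121 cells). Of 11 genes of the 53BP1 and shieldin branch, which favours end joining over resection, 6 were past 1 with Long higher, among them TP53BP1 (1.99), RIF1 (1.47) and H2AFX (1.34), and the median was 1.16. MAD2L2, a subunit of shieldin, was the most abundant gene of the lists, with a mean of 560 TPM, was detected in 121 of 121 cells and was at 0.84. Of 11 genes of alternative end joining 7 were past 1, NBN by 2.30, RAD50 by 2.15, PARP2 by 2.13 and FEN1 by 2.03, while POLQ, the polymerase of this route, was at 0.72 and LIG3, its ligase, at 1.64. In gene-rich cells the medians of the 3 lists were -0.10, 0.55 and -0.35, with 2, 3 and 1 genes past 1 with Long higher (9.6% of all genes tested) and 1, 0 and 1 with Long lower (8.67%). In gene-poor cells the medians were 0.77, 0.53 and 0.92, so for the 53BP1 and shieldin list the gene-poor value was no higher than the gene-rich one. Among others, LIG3 (1.88), H2AFX (1.73), FAM35A (1.11) and POLL (1.06) were past 1 both in all cells and among the 51 Long and 3 Short gene-rich cells. With the T/R ratio the lists had median r of 0.040, 0.045 and 0.088, against 0.041 for the 8 genes. The values farthest from 0 were 0.25 for MAD2L2, 0.25 for WRN, 0.25 for TDP2 and -0.23 for RNF168.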

How the data were processed

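The 121 cells were grouped as Long, Medium or Short by their titles. The authors deposited 1 table of TPM, length-normalized and scaled to a fixed total per cell. Per their methods, 50-bp single-end reads were mapped to hg19 with TopHat and counted on RefGene genes with HTSeq, while the submitters' processing notes list TopHat2 and RSEM, so which tool made the TPM is not settled here. The table ended within a cut row after ZFR, and later genes were not analysed here. Whether strand was kept is not given in the sources used here. The study reports an average number of reads per cell and no significant correlation of the mapped share of reads with telomere length. The read depth of each cell was not among the values used here. No interval for a TPM was therefore given, and the number of cells limits precision.

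From the TPM, log2(TPM+1), detection above TPM 1, exact (Clopper-Pearson) 95% intervals of shares of cells, group differences and correlations were computed (Python 3.11.15, numpy 2.4.6, pandas 2.3.3, scipy 1.17.1, figures with matplotlib 3.10.9), with steps across genes tested on simulated data. Genes above TPM 1 in at least 5 cells were tested, 15956 in all including the 8 genes. With 1 line and no named culture each group was 1 sample, so no p-value was computed, and a call is a log2 difference of at least 1. The T/R ratios listed by the study for each cell served only as an axis of correlation. No doublet caller was run, since cells were picked singly and the table holds no barcodes. The 8 genes and the wider lists were chosen with earlier results of these data known, and Long 4 and the 6 cells apart were left out in alternatives chosen after seeing the data. Named genes were the 8, their wider lists, coding neighbours within 1000 bases of their starts and the 3 most similar genes of each that averaged 10 TPM or more. Not every gene the rule names is reported here.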

Additional observations from a re-analysis of the deposited data

How the results depend on the processing

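Of the recomputed values for single genes, 123 moved by less than the limit (0.5 on the log2 scale, 0.1 for a correlation), 27 moved further and 2 that had been past 1 changed sign, PRKDC (-0.046) and XRCC4 (-0.42), both in the gene-rich cells. Of the genes not past 1, LIG4 (-0.32) and PARP1 (-0.08) also changed sign there, and PARP1 did by group medians (-0.33) and by the median ratio (-0.51). In the gene-rich cells the number of genes past a Long minus Short difference of 1 went from 3 to 0, their median from 0.97 to -0.061, the difference in genes detected per cell from 1.06 to -0.27 and the median r between the genes from 0.10 to -0.043. The number past the limit was 0 with a pseudocount of 10, 5 after rescaling without ribosomal protein genes, 5 without Long 4, 6 with a limit of 0.5 and 0 with a limit of 2. Rescaling by the median ratio gave 2 genes past the limit, with XRCC5 at 0.23 and XRCC6 at 0.19, a median difference of 0.42 and a median r with the T/R ratio of -0.060, and it lowered the median of all genes tested from 0.50 to 0.31. XRCC4 differed by 2.27 with a pseudocount of 0.1 and by 0.21 with 10, and the causes of these changes were not tested. Leaving out the 6 cells apart moved none of the summary values past the limit. No paired analysis was possible because no result comes from a test and the numbers in the titles only name cells.

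The depth of each cell is unknown here, only 3 Short cells were gene-rich, and a value of 0 was not read as absence. The groups were cut from the T/R ratio, and cells of 1 line stand for 1 sample. In Short cells the T/R ratio and the number of detected genes had an r of 0.72, so their relations to PRKDC cannot be told apart.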
